A study of Planococcus citri with 8 samples.

Results

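The genes described here are those that carry metabolites across the inner mitochondrial membrane and those that build the respiratory chain of the citrus mealybug, *Planococcus citri*. Members were taken from the authors' annotated gene table by its InterPro column, which gives 1 entry per gene where there is one. A gene was a mitochondrial carrier if its entry was the mitochondrial substrate/solute carrier repeat (IPR018108), and a respiratory chain gene if its description held the words NADH, cytochrome c oxidase, ATP synthase or succinate dehydrogenase. The rule found 86 genes, 33 carriers and 53 respiratory chain genes, among 17669 genes of that table and 40620 gene models of the count table. All 86 passed the expression filter. The 53 chain genes comprise 28 of a complex I list, 3 of a complex II list, 9 of a complex IV list, 6 of a complex V list and 7 whose description names an assembly factor. By the function their entry describes, 37 are subunits, 13 help to assemble or mature a complex, and 3 carry a domain shared by mitochondrial ribosomal proteins and a complex I subunit. Subunits annotated under other words are not members, and a few of them are given below for comparison.

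RNA-seq libraries were made from 4 virgin and 4 mated pools, each of about 150 whole insects (about 100 mg), kept on lemons and sequenced as polyadenylated RNA. The labels name no genetic change or drug for either group, and all were adult females of 1 laboratory colony. Virgin females (replicates 2, 3, 5 and 6) grew from first instars on lemons in separate boxes, from which male cocoons were picked off. Mated females (replicates 8, 9, 10 and 11) came from the main stock colony and were sampled when egg sacs were present, so mating, egg laying and rearing differ together between the groups and cannot be told apart. The females of a pool were whole animals, so a change in RNA per cell and a change in the number of cells of a type cannot be told apart either.

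Mitochondria make most of a cell's ATP by passing electrons from NADH and succinate along complexes I to IV to oxygen, which pumps protons out of the matrix. Complex V, the ATP synthase, lets the protons return and makes ATP. Carriers of the substrate/solute family exchange nucleotides, phosphate, organic acids and amino acids across the inner membrane, and the ADP/ATP carriers among them are abundant in animals. Insect flight and body muscle is rich in these complexes. The annotation does not say which solute each carrier of *P. citri* moves, so the carriers are named here by gene model only.

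Total counts per library were 29667566 to 50301861. Levels are CPM (counts scaled to a fixed library total) after TMM scaling, and differences are log2 fold changes with virgin females on top, from a two-sided quasi-likelihood F test in edgeR, with a standard error (SE) and a Benjamini-Hochberg adjusted p over all 21179 genes tested. A gene is called higher or lower at an adjusted p under 0.05. Per-library values follow the order virgin replicates 2, 3, 5 and 6, then mated replicates 8, 9, 10 and 11. Counts were not divided by gene length, so a level can be compared between libraries but not between genes. Over all genes tested, 26.4% were called higher and 21.3% lower in virgin females. The share of all genes at an unadjusted p was not counted, so unadjusted counts below have no background to be read against. On the first principal component (78.4% of the variance), virgin replicate 2 lay at 3.73, between the other virgin libraries (99.3 to 121) and the mated libraries (-108.1 to -62.2), so counts are also given without it.

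Most respiratory chain genes were higher in virgin females. Of the 53 genes, 46 were called higher and 0 lower (edgeR), against 26.4% higher and 21.3% lower of all genes tested. At an unadjusted p under 0.05, 49 were higher and 0 lower, and DESeq2 and limma voom also gave 0 lower. The fold change was above 0 in all 53 genes under each of 16 alternative normalizations, filters, tools and left-out libraries. Over all libraries it was above 0 in 10912 of the 21179 genes tested. The median log2 fold change was 0.78, against 0.03 for all genes tested. The differences were modest and similar in size: apart from 1 gene at 2.65, they lay between 0.23 and 1.15. In 43 of the 53 genes all virgin libraries lay above all mated libraries, where 22.1% of all genes did so. Without virgin replicate 2, 49 of the 53 were called higher, against 31.4% of all genes tested in that setting, and in 51 the remaining virgin libraries lay above all mated libraries, against 32.2% of all genes. Summed over the 53 genes, levels were 3827, 5321, 7235.5 and 5665 CPM in virgin pools, against 3073, 3368, 2872 and 3079 CPM in mated pools.

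**Figure D1:**
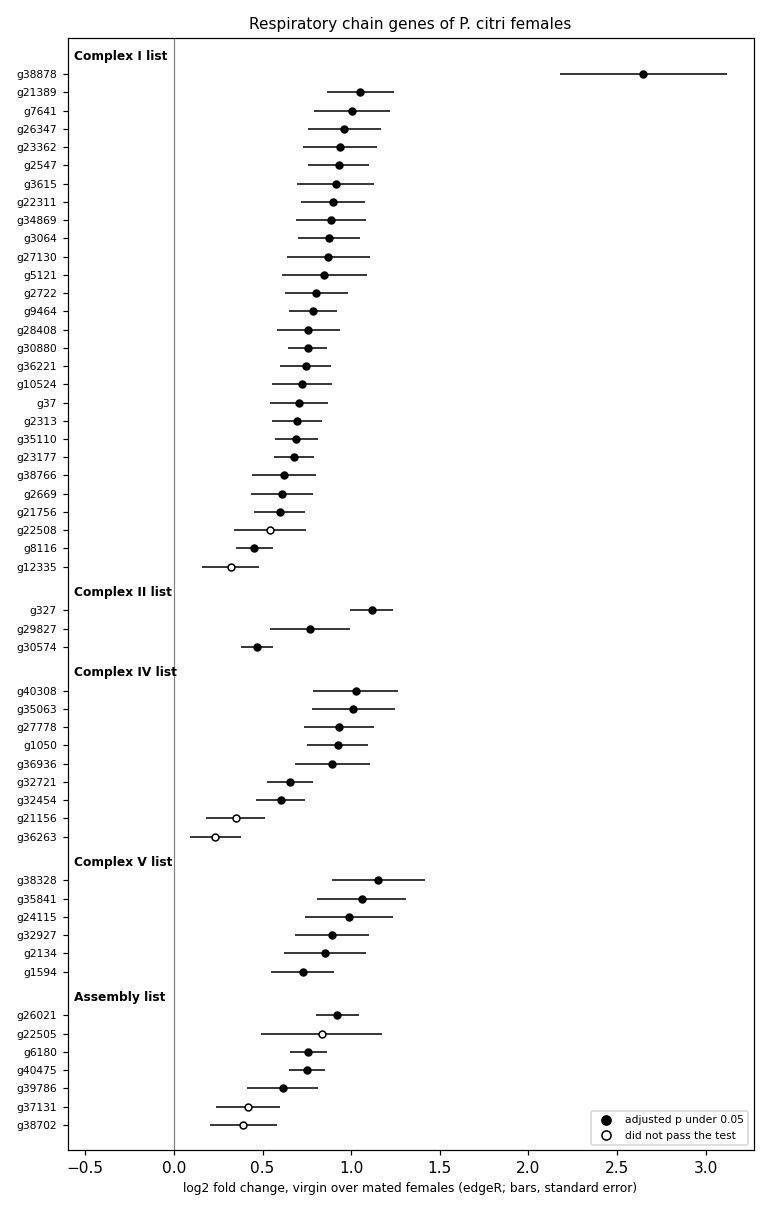
Log2 fold change (virgin over mated females, x axis) of each of the 53 respiratory chain genes, grouped by list, with bars of 1 SE; filled points passed the test and open points did not. All points lie right of 0, and g38878 at 2.65 stands apart from the rest, which end at 1.15.

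Mitochondrial carriers were divided. Of the 33 carriers, 13 were called higher and 0 lower (edgeR), with 26.4% and 21.3% as the shares of all genes. At an unadjusted p under 0.05, 16 were higher and 0 lower, with no share of all genes at that threshold to set beside them. The median log2 fold change was 0.33, and 25 of the 33 were above 0, against 10912 of all 21179 genes tested. All virgin libraries lay above all mated libraries in 8 carriers (22.1% of all genes) and below them in 0 (21.1% of all genes). Without virgin replicate 2, the other virgin libraries lay above all mated libraries in 17 carriers, where 32.2% of all genes did so. In that setting 16 carriers were called higher and 3 lower, with 31.4% of all genes higher and 30.6% lower. The median was 0.17 without virgin replicate 5.

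The most heavily counted carrier was g5482 (scaffold PCITRI_01734), the gene that marks this set. It had 3953, 3977, 4629 and 4319 CPM in virgin pools, against 1965, 2871, 2124 and 2269 CPM in mated pools. The groups did not overlap, and mated replicate 9 was the highest of its group. Means were 4219.6 ± 320.1 CPM in virgin pools, against 2307 ± 396 CPM in mated pools (SD, n = 4 each), with a log2 fold change of 0.87 (SE 0.16, adjusted p = 0.00334, edgeR). The call held under every alternative, with log2 fold changes of 0.79 to 0.98. This single gene held 66.5 to 71.4% of all carrier counts in virgin libraries and 60.7 to 67.8% in mated libraries. The other 32 carriers together summed to 1581 to 2329 CPM in virgin pools, against 1254 to 1366 CPM in mated pools. Of all counts in a library, the 33 carriers took 0.573 to 0.669% in virgin and 0.323 to 0.415% in mated females.

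The largest difference among carriers was that of g34148 (PCITRI_00722). Its levels were 24.8, 130.5, 206 and 166 CPM in virgin pools, against 13.5, 22.6, 5.62 and 14.9 CPM in mated pools. Virgin replicate 2 lay just above the highest mated library and far below the other virgin libraries. The log2 fold change was 3.22 (SE 0.66, adjusted p = 0.00543, edgeR), between 2.92 and 3.56 over the alternatives. A second carrier, g2094 (PCITRI_00044), had 135, 231, 337 and 250.4 CPM in virgin pools, against 65.4, 83.0, 55.4 and 64.9 CPM in mated pools. Here the groups were well apart in every library, with a log2 fold change of 1.83 (SE 0.26, adjusted p = 0.0018, edgeR).

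Carriers also lay in 2 neighbouring pairs of called genes at low levels. On PCITRI_02814, g11075 had 3.12, 11.6, 22.9 and 15.3 CPM in virgin pools, against 2.72, 3.02, 2.69 and 2.17 CPM in mated pools (log2 fold change 2.32, SE 0.52, adjusted p = 0.00761, edgeR). Its neighbour g11073, with 1 gene model between them, had 1.24, 7.56, 9.93 and 7.43 CPM in virgin pools, against 1.42, 1.19, 1.79 and 1.27 CPM in mated pools (2.20, SE 0.55, adjusted p = 0.012, edgeR). Virgin replicate 2 was at the level of mated females for both. On PCITRI_01512 the adjacent models g3845 and g3846 had means of 4.65 ± 2.72 and 12.5 ± 7.20 CPM in virgin pools, against 1.09 ± 0.13 and 3.45 ± 0.262 CPM in mated pools (SD, n = 4 each). For both of them virgin replicate 2 (1.10 and 2.64 CPM) lay inside or below the mated range, and the other virgin libraries lay above it. Their log2 fold changes were 2.09 (adjusted p = 0.0109) and 1.86 (adjusted p = 0.0172), by edgeR. Only uniquely placed read pairs were counted, so copies of near-identical sequence would lose reads, and neighbouring models of 1 family are uncertain for that reason.

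Carriers with smaller, even differences were g3252, g99 and g22187. In g3252 (PCITRI_01433) virgin females had 48.5, 47.9, 59.8 and 45.6 CPM and mated females 31.7, 29.9, 26.5 and 26.8 CPM, a log2 fold change of 0.81 (SE 0.12, adjusted p = 0.00184, edgeR). In g99 (PCITRI_00001) virgin females had 14.6, 14.2, 14.8 and 14.8 CPM and mated females 8.81, 11.04, 8.68 and 8.69 CPM, a log2 fold change of 0.65 (SE 0.13, adjusted p = 0.00548, edgeR). These 2 did not show the low value of virgin replicate 2. In g22187 (PCITRI_00096) virgin replicate 2 was in fact the highest library: 53.5, 48.8, 43.2 and 41.7 CPM in virgin pools, against 35.7, 30.8, 37.3 and 30.2 CPM in mated pools (log2 fold change 0.48, SE 0.12, adjusted p = 0.0125, edgeR).

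Among the remaining called carriers, g7897 (PCITRI_02136) had 27.2, 49.1, 108 and 53.8 CPM in virgin pools, against 26.6, 27.7, 18.7 and 17.8 CPM in mated pools. Its log2 fold change of 1.39 (adjusted p = 0.0186, edgeR) was 0.93 without virgin replicate 5. The carriers g12120 (0.63, adjusted p = 0.0241) and g11808 (0.48, adjusted p = 0.0499) had overlapping groups, each with virgin replicate 2 inside the mated range. Calls were lost under 11 of the 16 alternatives for g11808 (adjusted p = 0.00412 to 0.131 over all of them), 6 for g12120 (0.000384 to 0.0739), 2 each for g7897 (0.00121 to 0.0588) and g3846 (8.43e-05 to 0.0784), and 1 for g11073 (8.93e-05 to 0.0578). Without virgin replicate 5, g11808 had a log2 fold change of 0.30.

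The 20 carriers that did not pass the test included some at high counts. In g28510 (PCITRI_00360) virgin females had 180.4, 172, 240.4 and 193 CPM and mated females 159, 184, 173 and 165 CPM, a log2 fold change of 0.21 (SE 0.12, adjusted p = 0.191, edgeR). In g24120 (PCITRI_00155) virgin females had 109, 151, 255 and 180.0 CPM and mated females 122, 123, 120.1 and 107 CPM (0.56, SE 0.23, adjusted p = 0.0764, edgeR). In g23694 (PCITRI_00140) the spread between virgin libraries was wide, with 40.4, 111, 174 and 85.6 CPM, against 73.7, 57.6, 58.1 and 49.1 CPM in mated pools (0.78, SE 0.38, adjusted p = 0.118, edgeR). Of these 3, g24120 and g23694 were called higher without virgin replicate 2. The carrier g12490 just missed the threshold (37.1 ± 5.41 CPM in virgin pools, against 29.5 ± 1.15 CPM in mated pools, SD, n = 4 each, adjusted p = 0.0535, edgeR).

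A fold change below 0 was found in 8 carriers, a count that was 5 to 14 over the alternatives (14 with limma voom and sample quality weights, 13 with upper-quartile factors, 12 without virgin replicate 2 and 5 without virgin replicate 3). The lowest was g11710 (PCITRI_02997), with 0.758, 0.655, 3.51 and 1.23 CPM in virgin pools, against 3.60, 2.05, 3.62 and 2.67 CPM in mated pools. Virgin replicate 5 lay inside the mated range and the other virgin libraries below it. The log2 fold change was -0.95 (SE 0.54, adjusted p = 0.172, edgeR), and -1.76 (adjusted p = 0.0084, edgeR) without virgin replicate 5. In g27779 (PCITRI_00321) virgin replicate 2 was the highest of all libraries: 95.3, 52.6, 65.7 and 54.2 CPM in virgin pools, against 70.3, 71.8, 72.5 and 79.8 CPM in mated pools. Its log2 fold change was -0.14 (adjusted p = 0.569, edgeR) over all libraries and -0.37 (adjusted p = 0.0144, edgeR) without virgin replicate 2. The others below 0, except g11710 and g27779, were between -0.21 and -0.01.

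**Figure D2:**
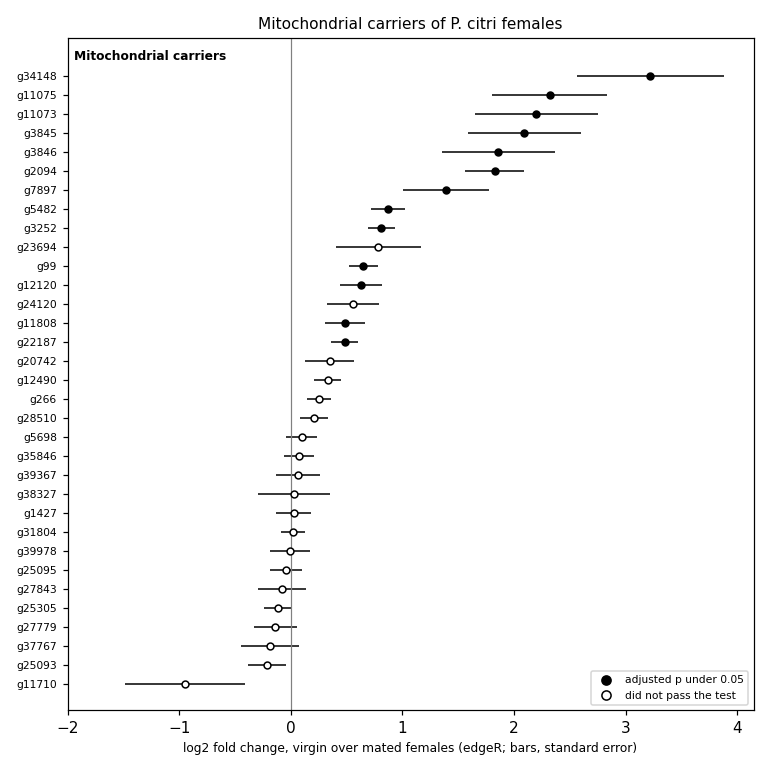
Log2 fold change (virgin over mated females, x axis) of each of the 33 mitochondrial carriers, with bars of 1 SE; filled points passed the test and open points did not. Called carriers run from 0.48 to 3.22 and none of the points below 0 is filled.

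Complex I takes electrons from NADH and hands them to ubiquinone. In its list 26 of 28 genes were higher and 0 lower in virgin females (edgeR), against 26.4% and 21.3% of all genes tested. All fold changes were above 0 (median 0.77). Without its shared-domain and assembly entries, 22 of 24 genes in this list were higher and 0 lower (median 0.79, edgeR). One of its core genes, g27130 (PCITRI_00293), is the subunit D entry of the catalytic core near the quinone site. It had 155, 229, 354 and 274 CPM in virgin pools, against 143, 159, 124 and 128 CPM in mated pools. Virgin replicate 2 fell inside the mated range and the other virgin libraries were clear of it (log2 fold change 0.87, SE 0.23, adjusted p = 0.0157, edgeR). The flavoprotein that binds FMN and accepts electrons from NADH, g37 (PCITRI_00001), had 175, 236, 300.3 and 272 CPM in virgin pools, against 153, 165, 140.5 and 144 CPM in mated pools. It did not overlap (0.71, SE 0.16, adjusted p = 0.00928, edgeR). Another core gene, the iron-sulphur subunit G entry g12335 (PCITRI_03217), was the one with the smallest difference of the list: 112, 135, 192 and 157 CPM in virgin pools, against 122, 129.5, 114 and 112 CPM in mated pools. It did not pass the test (0.32, SE 0.16, adjusted p = 0.131, edgeR), but did without virgin replicate 2 (0.42, adjusted p = 0.0194, edgeR).

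Accessory subunits surround the core and are needed for its stability in other animals. Among them, the NDUFB6 entry g21389 (PCITRI_00069) had 90.2, 141, 172 and 148 CPM in virgin pools, against 62.6, 75.9, 62.1 and 65.3 CPM in mated pools (log2 fold change 1.05, SE 0.19, adjusted p = 0.00342, edgeR). The subunit entry g30880 (PCITRI_00491) was among the most even, with 90.1, 96.9, 104 and 107 CPM in virgin pools, against 52.8, 67.4, 54.2 and 61.7 CPM in mated pools (0.75, SE 0.11, adjusted p = 0.00183, edgeR). Neither gene overlapped between the groups. In the NDUFB3 entry g5121 (PCITRI_01685) virgin replicate 2, at 35.2 CPM, lay among the mated libraries (28.2 to 39.1 CPM), and the other virgin libraries were at 64.4 to 82.5 CPM (0.85, SE 0.24, adjusted p = 0.0202, edgeR). The accessory flavoprotein entry g26347 had a log2 fold change of 0.96 (adjusted p = 0.00656, edgeR). In the quinone-side entry g23362, which belongs to the catalytic core, it was 0.94 (adjusted p = 0.00793, edgeR).

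One gene of the complex I list stood out. Its entry, the MLRQ subunit (NDUFA4 in mammals, where it was first assigned to complex I and later found with complex IV), was carried by 2 gene models. The model g38878 (PCITRI_01127) had 10.98, 37.0, 60.7 and 38.1 CPM in virgin pools, against 5.86, 7.87, 4.27 and 5.42 CPM in mated pools. The groups did not overlap, though virgin replicate 2 was closer to mated females than to its own group, and the log2 fold change was 2.65 (SE 0.47, adjusted p = 0.00327, edgeR). The other model, g2722 (PCITRI_01374), had 119, 162, 223 and 184 CPM in virgin pools, against 92.2, 107, 97.0 and 98.7 CPM in mated pools. Its log2 fold change of 0.80 (SE 0.18, adjusted p = 0.0076, edgeR) was near the median of the list.

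Pairs of members with the same entry, or next to each other among carriers, were compared by the ratio of their 2 levels within each library, in 13 pairs with an exact permutation test (two-sided, smallest possible p = 0.0286). The log2 ratio of g2722 to g38878 was 2.43 ± 0.69 in virgin and 4.10 ± 0.31 in mated females (SD, n = 4 each), a difference of -1.67 with exact p = 0.0286, and 0.186 after Benjamini-Hochberg adjustment over the 13 pairs. The ratio of g7641 to g21756, both with the ribosomal protein/NADH dehydrogenase domain, was 1.13 ± 0.16 in virgin and 0.74 ± 0.17 in mated females on the log2 scale, with the same p-values from the exact test. Among the other pairs the largest differences were 0.52 for g7641 to g8116, of the same domain, and 0.33 for the Cmc1-like entries g27778 to g32454, each with an exact p of 0.0857. No pair passed after adjustment, but with this smallest possible p a single pair could not have passed over 13 pairs, so this does not show that the ratios were alike. The NDUFA1 entries g3615 and g34869 had a log2 ratio of 1.39 ± 0.22 in virgin and 1.37 ± 0.11 in mated females (SD, n = 4 each; exact p = 0.886), while g3615 and g34869 each had a fold change of their own, 0.91 and 0.89 on the log2 scale. Of the NDUFA12 entries, g28408 was called higher (0.76, adjusted p = 0.00928, edgeR) and g22508 just missed (0.54, adjusted p = 0.0541, edgeR). The difference of their log2 ratio, 0.22, had an exact p of 0.0571.

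Complex II, which oxidises succinate in the citric acid cycle, was represented by 3 genes, all called higher (26.4% of all genes tested were). The clearest was g327 (PCITRI_00004), the flavinator of succinate dehydrogenase, an assembly factor that in yeast and other eukaryotes attaches the flavin to the enzyme. It had 22.7, 28.5, 29.9 and 28.3 CPM in virgin pools, against 12.1, 13.5, 12.4 and 12.5 CPM in mated pools. The gap between the groups was wide next to the spread within them, and its adjusted p was the lowest of all 86 genes (log2 fold change 1.12, SE 0.12, adjusted p = 0.00106, edgeR). The enzyme's own genes had smaller log2 fold changes, a difference that was not tested. A gene with the flavoprotein's C-terminal entry, g30574 (PCITRI_00474), had 185, 198, 226 and 197 CPM in virgin pools, against 150.3, 144, 144 and 144 CPM in mated pools (0.47, SE 0.09, adjusted p = 0.00427, edgeR). The membrane anchor g29827 (PCITRI_00434) had 36.1, 57.4, 84.9 and 59.1 CPM in virgin pools, against 35.0, 35.8, 34.5 and 34.2 CPM in mated pools. Virgin replicate 2 lay only just above the mated libraries there (0.77, SE 0.22, adjusted p = 0.0226, edgeR).

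Complex III, which passes electrons from ubiquinol to cytochrome c, falls outside the members' definition. Its 8 genes, with cytochrome c included, were also examined. Of these, 7 were higher and 0 lower (edgeR), against 26.4% and 21.3% of all genes tested. Their median log2 fold change was 0.85, and 8 were higher at an unadjusted p under 0.05 (edgeR). They summed to 843 to 1686 CPM in virgin pools and 599 to 702 CPM in mated pools. The ubiquinol-cytochrome c chaperone entry g24635 (PCITRI_00178), an assembly factor, had 41.4, 40.5, 38.5 and 37.7 CPM in virgin pools, against 24.6, 26.2, 23.7 and 27.9 CPM in mated pools (0.63, SE 0.09, adjusted p = 0.00192, edgeR).

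Complex IV, cytochrome c oxidase, passes the electrons to oxygen. In its list 7 of 9 genes were higher and 0 lower (edgeR), against 26.4% and 21.3% of all genes tested. At an unadjusted p under 0.05 the counts were also 7 and 0 (edgeR), and the median log2 fold change was 0.89. The subunits with the highest counts were g40308 and g1050. The VIa entry g40308 (PCITRI_01278) had 215, 332, 528 and 357 CPM in virgin pools, against 181, 189, 158 and 177 CPM in mated pools (log2 fold change 1.02, SE 0.24, adjusted p = 0.00965, edgeR). The subunit IV entry g1050 (PCITRI_00019), a part of the enzyme that senses ATP in mammals, had 263, 361, 462 and 354 CPM in virgin pools, against 174, 215, 174 and 196 CPM in mated pools (0.92, SE 0.17, adjusted p = 0.00384, edgeR). Neither overlapped, and in both virgin replicate 5 was highest and virgin replicate 2 lowest of the virgin libraries. The Vb entry g35063 (1.01, adjusted p = 0.00875) and the Va/VI entry g36936 (0.89, adjusted p = 0.0095) had the same order of virgin libraries (edgeR). The VIb entry g21156 (PCITRI_00061) was low, at 7.25 ± 1.04 CPM in virgin pools, against 5.70 ± 0.613 CPM in mated pools (SD, n = 4 each), and did not pass (0.35, SE 0.17, adjusted p = 0.115, edgeR).

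The copper chaperone entry g36263 (PCITRI_00889), which delivers copper to the oxidase, had the smallest difference of all 53 chain genes. Virgin females had 29.9, 21.2, 22.8 and 20.9 CPM and mated females 20.7, 21.7, 18.0 and 20.4 CPM. Only virgin replicate 2 and, by a little, virgin replicate 5 lay above the mated range (0.23, SE 0.14, adjusted p = 0.208, edgeR), and without virgin replicate 2 the log2 fold change was 0.09. All 3 Cmc1-like biogenesis factors were each higher. The one with the largest change, g27778 (PCITRI_00321), had 16.0, 11.2, 12.0 and 12.1 CPM in virgin pools, against 6.26, 7.80, 5.02 and 7.82 CPM in mated pools (0.93, SE 0.20, adjusted p = 0.00651, edgeR). Here virgin replicate 2 was the highest of all libraries. It lies next to the carrier g27779, whose fold change was slightly below 0.

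Where 26.4% of all genes tested were called higher, all 6 listed genes of complex V were, with a median log2 fold change of 0.94. These are coupling factor 6 and the subunits f, e, g, b and gamma, which form the membrane part, the stalks that join it to the catalytic head, and the axle inside the head. Coupling factor 6, g38328 (PCITRI_01074), had 68.7, 106, 174 and 124 CPM in virgin pools, against 55.0, 63.1, 44.7 and 49.97 CPM in mated pools (1.15, SE 0.26, adjusted p = 0.00821, edgeR). The subunit B entry g2134 (PCITRI_00044), part of the outer stalk, had 268, 392, 629 and 397 CPM in virgin pools, against 237, 245, 220.2 and 233 CPM in mated pools (0.85, SE 0.23, adjusted p = 0.0168, edgeR). In both genes virgin replicate 5 was far above the other libraries. The subunit F entry g35841 had 137, 234, 352 and 227 CPM in virgin pools, against 118, 121, 104 and 114 CPM in mated pools (1.06, SE 0.25, adjusted p = 0.00964, edgeR). The log2 fold changes of g24115 (subunit E), g32927 (subunit G) and g1594 (gamma) were 0.99, 0.89 and 0.73, with adjusted p-values of 0.0126, 0.00966 and 0.0112 (edgeR). Among them only g24115 overlapped between the groups.

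Among all genes tested 26.4% were higher and 21.3% lower. Of the 13 genes that assemble or mature a complex, 9 were higher and 0 lower (edgeR; 11 and 0 at an unadjusted p under 0.05). Their median was 0.69. Of the 37 subunits, 34 were higher and 0 lower (35 and 0 unadjusted), with a median of 0.85. The difference between these 2 lists was not tested. The oxidase assembly entry g26021 (PCITRI_00239; Cox11, which helps to insert copper in yeast) had 55.3, 62.0, 66.9 and 70.1 CPM in virgin pools, against 36.6, 35.9, 28.0 and 33.9 CPM in mated pools (0.92, SE 0.12, adjusted p = 0.00152, edgeR). The ATP synthase assembly entry g6180 (PCITRI_01837; ATP12, a chaperone of the catalytic head in yeast) had 38.1, 42.0, 37.7 and 40.4 CPM in virgin pools, against 23.8, 25.5, 20.02 and 24.2 CPM in mated pools (0.76, SE 0.11, adjusted p = 0.00166, edgeR). Virgin replicate 2 was not low in g6180. The complex I assembly entry NDUFAF4 occurred in g40475 (75.4 ± 8.64 CPM in virgin pools, against 44.8 ± 1.57 CPM in mated pools, SD, n = 4 each; 0.75, adjusted p = 0.00162, edgeR) and in g22505, a low gene (2.05 ± 0.259 CPM in virgin pools, against 1.15 ± 0.446 CPM in mated pools; adjusted p = 0.0734, edgeR). The oxidase assembly entries g37131 (factor 3; 0.42, adjusted p = 0.0875) and g38702 (PET191; 0.39, adjusted p = 0.12) did not pass, and g39786 (COX16; 0.61, adjusted p = 0.0335) did, all by edgeR.

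Calls of 7 chain genes were lost under at least 1 of the 16 alternatives: 7 alternatives for g39786 (adjusted p = 0.0075 to 0.0956), 5 for g38766 (0.000703 to 0.0759), 2 each for g5121 (0.000474 to 0.0663), g2669 (0.00176 to 0.0665) and g29827 (0.000522 to 0.064), and 1 each for g2134 (0.000503 to 0.0543) and g27130 (0.000517 to 0.0537). Of the 46 called genes 39 were called under every alternative, as were 8 of the 13 called carriers.

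**Figure D3:**
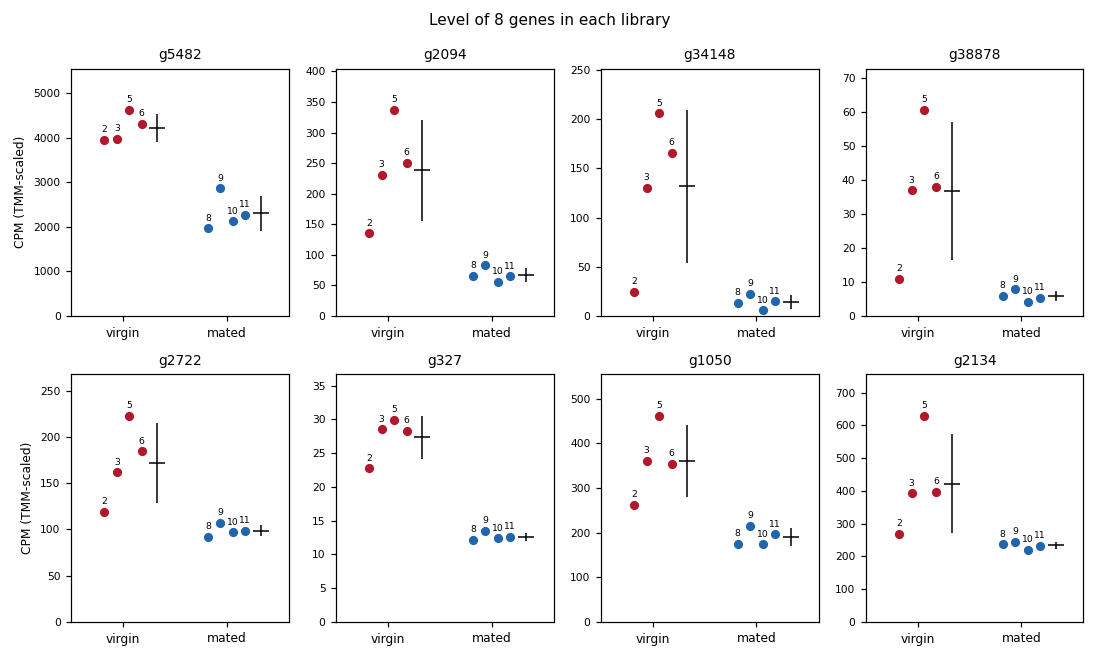
TMM-scaled level (CPM, linear axes from 0) of 8 genes in each library, numbered by replicate, virgin females left and mated females right, with the mean and SD of each group beside the points. In g5482 the virgin libraries are close together (3953 to 4629 CPM), while in g34148, g38878 and g2134 virgin replicate 2 is near the mated libraries and virgin replicate 5 is highest.

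The chain genes varied together among the virgin libraries. For each library, the median over the 53 genes of the log2 ratio to the mean of the mated libraries was 0.31, 0.73, 1.04 and 0.85 in virgin replicates 2, 3, 5 and 6, and between -0.11 and 0.12 in mated libraries. Over all genes tested these medians were between -0.02 and 0.04 in every library, but TMM scaling tends to hold them near 0. Over all genes called higher they were 0.70, 1.58, 1.66 and 1.66 in virgin replicates 2, 3, 5 and 6. A low virgin replicate 2 was thus shared by genes called higher in general. Virgin replicate 2 was the lowest and virgin replicate 5 the highest virgin library in 41 of the 53 chain genes (77.4%), against 19.4% of all genes tested and 41.3% of all genes called higher. The order held in 33 of 37 subunits (89.2%) and in 5 of 13 assembly and maturation genes (38.5%), a difference that was not tested. In complexes II and V it held for all 3 and all 6 listed genes. Among carriers it held for 12 of 33. The order was not particular to the chain: it held for 20 of 24 V-type ATPase genes (83.3%), 14 of 17 of the citric acid cycle (82.4%), 6 of 8 of complex III and cytochrome c (75.0%), 9 of 14 of glycolysis (64.3%) and 14 of 22 of the mitochondrial ribosome (63.6%). Genes of 1 library share that library's depth and make-up, so these counts describe the libraries and are not separate observations.

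**Figure D4:**
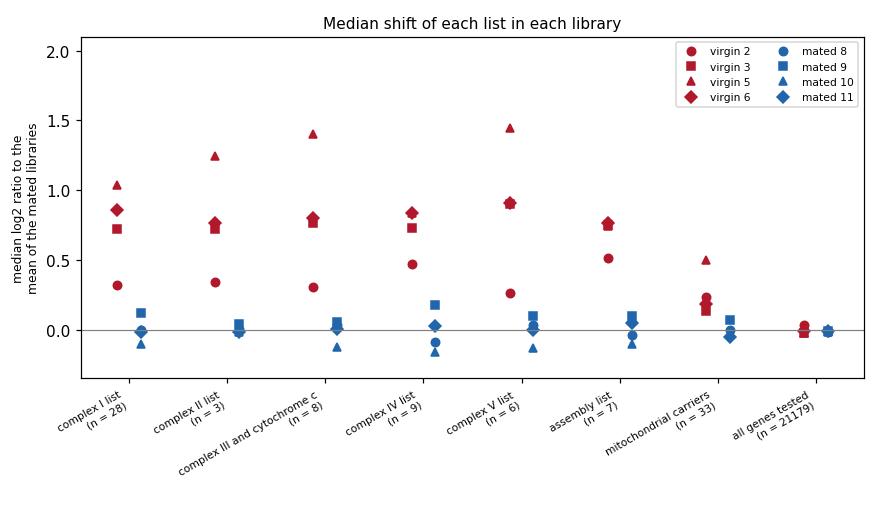
Median over each list of the log2 ratio to the mean of the mated libraries (y axis), for each of the 4 virgin and 4 mated libraries and 8 lists (n, genes in the list). In the lists of complexes I, II and V virgin replicate 5 is at 1.04 to 1.45 and virgin replicate 2 at 0.26 to 0.35. All genes tested stay near 0, where TMM scaling tends to hold them.

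Members that lie close together on a scaffold did not always move together. On PCITRI_00321 the adjacent genes g27778 (a Cmc1-like oxidase factor) and g27779 (a carrier) had log2 fold changes of 0.93 and -0.14. On PCITRI_01074 the adjacent carrier g38327, a low gene (mean 1.31 CPM), and g38328 (coupling factor 6) had 0.03 and 1.15. The adjacent carriers g3845 and g3846 had 2.09 and 1.86. On PCITRI_00155 g24115 (ATP synthase subunit E) and the carrier g24120, with 4 gene models between, had 0.99 and 0.56. Farther apart, on PCITRI_00044, the carrier g2094 and g2134 (ATP synthase subunit B), with 39 models between, had 1.83 and 0.85, both called higher.

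Further genes tied to the chain under other words made a list of 9. It had 6 higher and 0 lower (edgeR; 7 and 0 unadjusted), against 26.4% and 21.3% of all genes tested. It includes electron transfer flavoprotein entries, which feed the chain but are no part of a complex, and ATPase alpha/beta entries whose description fits both ATP synthase and the V-type ATPase. Among them the GRIM-19 entry g5112, a complex I subunit, had 68.3, 107, 133 and 124 CPM in virgin pools, against 55.0, 62.7, 53.5 and 53.3 CPM in mated pools (log2 fold change 0.94, adjusted p = 0.0058, edgeR). Another complex I subunit, g21385, had 0.99 (adjusted p = 0.00567, edgeR). Both genes of the mitochondrial pyruvate carrier, a separate family that brings pyruvate into the matrix, were higher (g27472 at 1.78 and g21133 at 1.32, with adjusted p = 0.00646 and 0.0106, edgeR). They summed to 35.5, 80.4, 128 and 87.0 CPM in virgin pools, against 27.6, 34.6, 21.1 and 24.9 CPM in mated pools, again with virgin replicate 2 nearest to mated females. The V-type ATPase is a proton pump of other membranes related to complex V. With the same shares of all genes, 11 of its 24 genes were higher and 2 lower (edgeR; 15 and 2 unadjusted). In 22 of the 24 the fold change was above 0 (10912 of 21179 genes tested), and the median was 0.56.

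Pathways that feed the chain are given next, where 26.4% of all genes tested were higher and 21.3% lower. Glycolysis, which makes pyruvate, had 11 of 14 genes higher and 0 lower (median 1.02; 11 and 0 unadjusted, edgeR). One of its last enzymes, the pyruvate kinase C-terminal entry g7987 (PCITRI_02152), had 54.6, 85.8, 112 and 107 CPM in virgin pools, against 31.9, 36.5, 20.5 and 24.8 CPM in mated pools (1.66, SE 0.26, adjusted p = 0.0023, edgeR). On the same scaffold g7988 has the pyruvate kinase barrel entry, and on PCITRI_01607 g4532 and g4533 have the N- and C-terminal hexokinase entries. Each pair may be parts of 1 gene, so the count of 11 of 14 is of gene models, which were not merged. The citric acid cycle list had 7 of 17 higher and 0 lower (median 0.41; 11 and 0 unadjusted, edgeR). Its citrate synthase entry g32289 did not pass (0.29, adjusted p = 0.114, edgeR). Nor did the aconitase entries g20717 (0.32, adjusted p = 0.0883) and g263 (0.27, adjusted p = 0.0544), by edgeR. The count of higher genes in this list was 3 and 4 without mated replicates 10 and 11 and 12 without virgin replicate 2. Its called gene with the smallest p, g1691 (PCITRI_00034; an isopropylmalate dehydrogenase-like domain, shared with isocitrate dehydrogenases), had 170.4 ± 27.7 CPM in virgin pools, against 104 ± 5.47 CPM in mated pools (SD, n = 4 each; 0.72, SE 0.13, adjusted p = 0.0034, edgeR). Fatty acid beta-oxidation had 4 higher and 2 lower of 21, with a median of -0.08. A pair of acyl-CoA dehydrogenase/oxidase genes of that list went opposite ways: g16743 (PCITRI_05624) had 38.2 ± 6.02 CPM in virgin pools, against 77.1 ± 11.2 CPM in mated pools, and g28765 (PCITRI_00374) had 47.1 ± 5.46 CPM in virgin pools, against 30.9 ± 4.12 CPM in mated pools (SD, n = 4 each). Their log2 fold changes were -1.01 (adjusted p = 0.00199) and 0.60 (adjusted p = 0.00689), by edgeR.

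Other mitochondrial lists also had genes called higher and 0 called lower, where 26.4% of all genes were higher and 21.3% lower. In the mitochondrial ribosome list 15 of 22 were higher and 0 lower (median 0.59; 19 and 0 unadjusted), in protein import and porin 9 of 18 and 0 (median 0.43; 10 and 0 unadjusted), and in the fusion, cristae and prohibitin list 2 of 3 and 0 (median 0.61; 2 and 0 unadjusted), all by edgeR. The ribosome count was 11 to 18 over the alternatives. The import count fell to 4 when either mated replicate 10 or mated replicate 11 was left out. The small-subunit ribosomal protein g28289 (0.62, adjusted p = 0.0018) and the Tim10/DDP import gene g21649 (0.70, adjusted p = 0.00366) did not overlap between the groups (edgeR). Mitofilin (g39184, PCITRI_01157), which shapes the cristae where the chain sits, had 268, 222, 269 and 232 CPM in virgin pools, against 160 to 169 CPM in mated pools (0.61, SE 0.10, adjusted p = 0.00228, edgeR).

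Markers of muscle and of dividing cells also differed between the groups. Genes of the muscle list (48, taken by description) were 22 higher and 13 lower (45.8% and 27.1%, against 26.4% and 21.3% of all genes tested). Their median log2 fold change was 0.24, and all were counted in every library (0 with a library at 0). They summed to 9221 to 15806 CPM in virgin pools, against 7281 to 8606 CPM in mated pools, with virgin replicate 2 the lowest virgin library. All 5 troponins, the calcium switch of striated muscle, were higher, at 719.5, 2068, 2325 and 1918 CPM in sum in virgin females, against 374, 485, 249 and 408 CPM in mated pools. The troponin g30236 (PCITRI_00455) had a log2 fold change of 2.25 (SE 0.36, adjusted p = 0.00227, edgeR). Myosin entries were 10 higher and 4 lower of 17, with log2 fold changes of -3.87 to 2.11. Tropomyosins were 3 higher and 0 lower of 6. Calponin-type genes were 4 higher and 9 lower of 20, with g4115 at -1.14 (adjusted p = 0.00118, edgeR). The descriptions do not separate muscle genes from others, for myosin and calponin-type entries alike, and many of the latter are not specific to muscle. Markers of proliferating cells and embryos (37) were 0 higher and 18 lower (edgeR; 0 and 20 unadjusted), with the same shares of all genes. The count of lower markers was 13 to 28 over the alternatives. It was 27 without virgin replicate 2, where 30.6% of all genes were lower. The 37 markers summed to 1726 to 2763 CPM in virgin pools, against 2949 to 3576 CPM in mated pools, and 0 of them had a library at 0. An MCM gene of DNA replication, g2995 (PCITRI_01407), had 46.7 ± 5.64 CPM in virgin pools, against 123 ± 15.9 CPM in mated pools (SD, n = 4 each; log2 fold change -1.40, adjusted p = 0.00085, edgeR). Axoneme genes were 2 higher and 0 lower of 3, with sums of 11.04 to 32.6 CPM in virgin pools, against 4.89 to 7.70 CPM in mated pools, and the dynein heavy chain g21392 was at 2.09 (adjusted p = 0.00302, edgeR). The part of these cell types in the differences of the chain and carrier genes was not tested.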

How the data were processed

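RNA-seq of 4 virgin and 4 mated pools was analysed. The authors trimmed reads, mapped them to the Pcitri.v1 genome and counted uniquely mapped read pairs per gene model in CLC Genomics Workbench, and these counts were used as deposited. The deposited log2 CPM values, and the authors' log2 fold changes and adjusted p-values, were not used; the table of the last 2 gave the InterPro entries only. Tools listed by the submitters' processing notes include limma 3.34.9, edgeR 3.20.9, FastQC and R 3.4.2. Libraries were strand-specific, but no strand setting of the counting step is stated in the sources used. Overlapping and antisense genes are therefore uncertain.

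Tests were run with edgeR 4.0.16 under R 4.3.3 (filterByExpr, TMM, glmQLFit and glmQLFTest on condition, Benjamini-Hochberg over 21179 genes). The SE is the absolute log2 fold change divided by the square root of F. Alternatives were RLE and upper-quartile factors, library size alone, no filter, more than 1 CPM in at least 3 libraries, DESeq2 1.42.0, limma 3.58.1 voom without and with sample quality weights, each library left out, and 2 narrower chain lists. Ratios to the mated mean used a pseudocount of 0.05 CPM. The script was tested on simulated data. Chi-square values per degree of freedom between libraries of a group were 27.9 to 399, above counting noise, so no library was merged with another. The pools are biological replicates according to the methods.

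Members and lists were chosen with earlier results of these data known. Genes named by rule were g5482, up to 8 called, non-overlapping carriers each way with the largest fold changes and a mean log2 CPM of at least 1, the 3 carriers with the highest counts, up to 3 called members each way and the highest member of each chain list, and up to 1 called gene each way of each context list. A further 43 were chosen with their values in view, and the lists of further chain genes, the pyruvate carrier and the V-type ATPase were added after the files had been opened.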

Additional observations from a re-analysis of the deposited data

Results flagged for a closer look

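In 10 of 166 groups of 4 libraries (6.02%), 1 library stood far from the other 3, where chance flags about 1 in 20 (Dixon's test). In virgin females these were virgin replicate 2 in the carrier g12120, at 15.8 CPM against 25.5 to 26.3 CPM in the others, in the carrier g27843, at 96.1 CPM against 50.2 to 53.7 CPM, and in the carrier g39978, at 133.8 CPM against 76.1 to 83.8 CPM, virgin replicate 5 in the oxidase assembly gene g38702, at 5.62 CPM against 3.99 to 4.19 CPM, and in the shared-domain gene g8116, at 61.7 CPM against 48.8 to 50.6 CPM, and virgin replicate 6 in the small Tim gene g21649, at 15.2 CPM against 12.9 CPM. In mated females they were mated replicate 9 in the carrier g99, at 11.04 CPM against 8.68 to 8.81 CPM, and in the complex I assembly gene g22505, at 0.487 CPM against 1.27 to 1.42 CPM, and mated replicate 8 in the succinate dehydrogenase gene g30574, at 150.3 CPM against 144 CPM, and in the beta-oxidation gene g28765, at 37.1 CPM against 28.6 to 29.1 CPM.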

How the results depend on the processing

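Respiratory chain genes called higher numbered 46 over all libraries, between 43 and 50 under the alternatives other than leaving out mated replicate 10 (39), and 42 and 34 with the 2 narrower lists (46 and 37 genes). None was called lower under any of them (0). Carriers called higher numbered 13, and 9 to 16 under the alternatives. Carriers called lower numbered 0, but 4 with limma voom and sample quality weights (g11710, g25093, g27779 and g27843), and 0 to 3 when 1 library was left out: 3 without virgin replicate 2 (g27779, g27843 and g39978) and 1 without virgin replicate 5 (g11710). Of 1296 values for 81 named genes, 1221 kept their direction and their side of the threshold, 42 lost the call, 26 gained it and 7 changed direction. These 7 were log2 fold changes near 0, none past the threshold: g27843 at 0.0067 and 0.023 without virgin replicates 3 and 6, against -0.08 over all libraries, and g39978 at 0.023 by library size alone, 0.050, 0.030 and 0.089 without virgin replicates 3, 5 and 6, and 0.002 without mated replicate 9, against -0.01 over all libraries. Without virgin replicate 2 the values were -0.37 for g27843 and -0.23 for g39978. Over all 33 carriers, 9 changed direction under at least 1 alternative, each within 0.10 of 0 over all libraries, and 0 of them passed the threshold in the other direction. No chain gene changed direction (0 of 53). The uncalled genes g23694, g24120 and g12335 had log2 fold changes of 0.40, 0.30 and 0.16 when virgin replicate 5 was omitted. The cause was not tested. No paired analysis was possible because the groups share no replicate numbers. One count was worth 0.0208 to 0.0327 CPM, so members near 1 CPM rest on few reads. The number of pools limits each test.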
